A study of Mus musculus with 2 samples.

Results

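The Cyp4 fatty acid omega-hydroxylases are microsomal cytochrome P450 enzymes, followed here through 10 listed mouse genes: Cyp4a10, Cyp4a12a, Cyp4a12b, Cyp4a14, Cyp4a31, Cyp4a32, Cyp4f13, Cyp4f14, Cyp4f15 and Cyp4v3. They were measured in liver RNA of male 129SvEJ mice aged 8 weeks, either wild type or pparalpha -/-, that is, without functional PPARα. Both genotypes ate chow with 0.2% fenofibrate, a lipid-lowering drug that activates PPARα, over 7 days, so the controls carry the same drug exposure and no array of undrugged mice was analysed here. The RNA of 3 mice was pooled per genotype and each pool was read on 1 short-oligonucleotide array. A member was any probe set, meaning a group of probes summarised into 1 signal, whose platform gene symbol was a listed gene, including a probe set that carries several symbols. That rule gave 10 probe sets of 45037 that are not controls, covering 8 of the 10 genes. Cyp4a12b and Cyp4a32 had no probe set under these symbols and have no value below. Of the 10 probe sets, 9 carried 1 symbol and 1 carried both Cyp4a31 and Cyp4a10, so Cyp4a10 was read only together with Cyp4a31.

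Omega-hydroxylases add an oxygen to the methyl end of a fatty acid. Alcohol and aldehyde dehydrogenases then turn that end into a second carboxyl group, and the resulting dicarboxylic acid is shortened in peroxisomes. PPARα is the fatty acid-sensing nuclear receptor of hepatocytes. It binds DNA together with a retinoid X receptor, and Cyp4a genes are its textbook targets in rodent liver. The Cyp4a enzymes act mainly on medium and long fatty acids, including arachidonic acid, and Cyp4f enzymes on leukotrienes and longer chains.

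Values are the deposited signal intensities, on a linear scale without a unit. The median signal over non-control probe sets served as each array's floor, 287.8 for wild type and 269.4 for null. Dimmer signals were set to the floor before a ratio (wild type over null) was formed. A probe set was counted as measured when it reached the floor on at least 1 array, and a ratio with 1 side under the floor is a lower bound ("at least"). With 1 array per genotype there is no replicate error, no test and no p-value, and a probe set was called by size alone, at 2-fold or more. The only scatter that could be measured was between different probe sets of 1 gene, where the pooled SD of the log2 ratios came to 0.42 (3917 genes, 10117 probe sets). That SD leaves out variation between mice and pools.

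The promoter stretches of the 3 Cyp4f genes are shown because these members of a gene cluster on chromosome 17 gave different ratios on the arrays. Promoters came from RefSeq (GRCm38.p6), which held 8 windows for 5 of the 10 genes, namely Cyp4a32, Cyp4f13, Cyp4f14, Cyp4f15 and Cyp4v3. Cyp4a10, Cyp4a12a, Cyp4a12b, Cyp4a14 and Cyp4a31 are without an entry. Each line below is read 5′ to 3′ on the gene's own strand and lies upstream of the start of transcription. Capitals mark GGATTGG, a run that all 3 genes share.
Cyp4f13, chr17:32947393-32947499, minus strand: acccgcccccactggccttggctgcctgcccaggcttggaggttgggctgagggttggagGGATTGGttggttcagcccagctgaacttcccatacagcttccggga
Cyp4f14, chr17:32917362-32917468, minus strand: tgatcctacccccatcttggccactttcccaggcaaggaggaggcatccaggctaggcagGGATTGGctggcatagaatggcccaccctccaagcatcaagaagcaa
Cyp4f15, chr17:32685519-32685625, plus strand: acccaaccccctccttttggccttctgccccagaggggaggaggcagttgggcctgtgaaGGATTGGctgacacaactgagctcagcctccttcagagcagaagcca

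The marked run began 78 bases before the start in Cyp4f13, 79 in Cyp4f14 and 80 in Cyp4f15. Cyp4f14 has other annotated starts, from which the same run lay 66 and 52 bases away, and 1 whose window does not hold it. It was the run of 7 letters, among 4 such runs common to the 3 genes on their own strand, whose distance from the start differed least, and it was chosen after these sequences were seen. The reverse complement of its last 5 letters is CCAAT, the core of the well-known CCAAT box. Of 32851 promoter windows, 2.2% held GGATTGG on the gene's strand and 4.17% on either strand, and 19 windows held it between 78 and 80 bases before the start. Set side by side on the run, the 107 bases of Cyp4f14 and Cyp4f15 were identical at 60 positions, those of Cyp4f13 and Cyp4f15 at 54 and those of Cyp4f13 and Cyp4f14 at 41. The element bound by PPARα is a direct repeat, 2 copies of AGGTCA with 1 base between, known as DR1. On either strand of the 250 bases before the start, 0 of the 8 windows held AGGTCA, against 14.0% of all windows. A DR1 with at most 2 mismatches was likewise in 0 of the 8, against 3.24% of all windows, and the closest matches, in Cyp4a32 and Cyp4v3, had 3. The 8 windows belong to 5 genes and several of Cyp4f14 largely overlap, so they are not independent. A count of 0 in so few windows does not show a lack. These letters are a description of a short window and not of binding.

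The probe sets of Cyp4a10, Cyp4a14 and Cyp4a31 were bright in wild-type liver and near or under the floor in the null liver. Of the 5 Cyp4a probe sets, 4 were higher in wild type by 2-fold or more. Over all members the count was 4 higher, 1 lower and 5 within 2-fold. Among the 26593 measured probe sets of the arrays, 4.67% were at least 2-fold higher and 2.99% at least 2-fold lower. All 10 members were measured, 3 of them through the wild-type array alone. The median log2 ratio of the 10 was 0.52, against 0.006 over all measured probe sets, and it lies between members that were far apart.

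**Figure D1:**
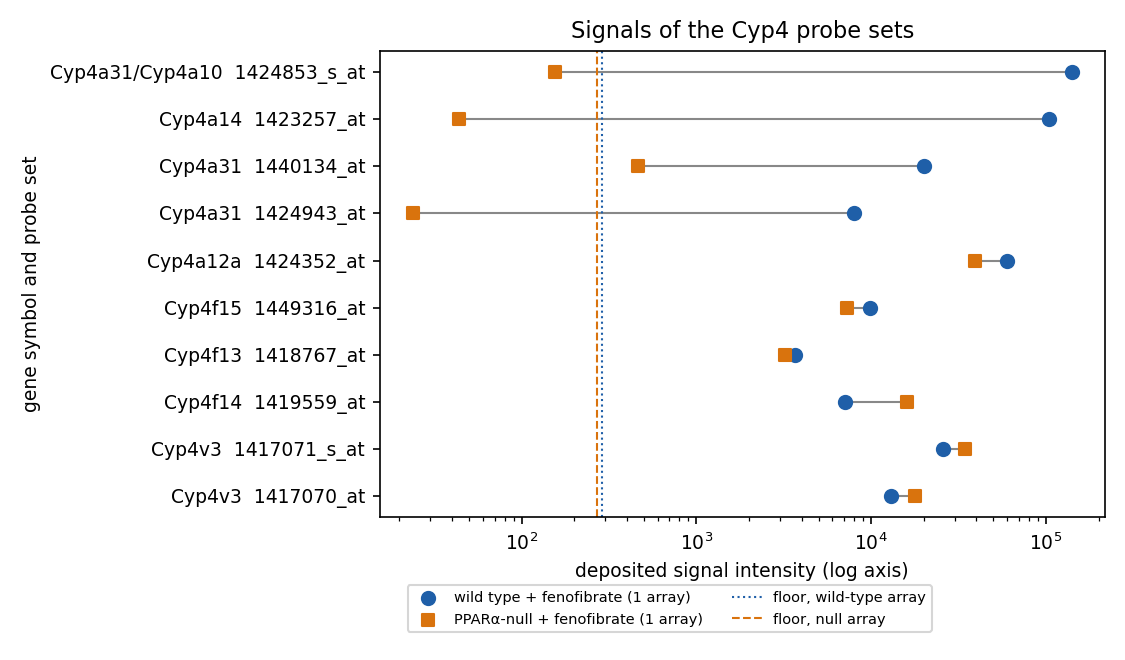
Deposited signal (horizontal, log axis) of each of the 10 Cyp4 probe sets on the wild-type array (circles) and the PPARα-null array (squares), with vertical lines at the floor of each array. The top 4 probe sets, all of Cyp4a10, Cyp4a14 or Cyp4a31, span from 7929 or more in wild type to 463.7 or less in null, while the other 6 lie above the floors on both arrays.

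The probe set shared by Cyp4a31 and Cyp4a10 gave 140584 in wild type and 155.6 in null. Cyp4a10 is the classic clofibrate-inducible lauric acid omega-hydroxylase of mouse liver. The wild-type signal was 488.5 times its floor and the null signal 0.58 times, so the difference was at least 522-fold. These genes are near-identical in sequence, and this probe set cannot tell their transcripts apart.

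Cyp4a14, another inducible Cyp4a enzyme that hydroxylates lauric acid, had signals of 104679 (wild type) and 44.0 (null). The difference was at least 389-fold. The null signal was dimmer than 8 of the 27 Bacillus control probe sets on that array, which match no mouse transcript and ran from 3.9 to 422.4.

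Cyp4a31, a close relative of Cyp4a10, had a pair of probe sets under its symbol alone, which may also read the near-identical Cyp4a32. The first gave 20131 in wild type and 463.7 in null, which is 43.4-fold higher in wild type with both signals above the floor. The second gave 7929 and 23.8, at least 29.4-fold higher. Both pointed the same way, and because the second ratio is a bound the pair does not disagree. The null signal of the first probe set stood 1.72 times over the floor and just above the brightest Bacillus control, so the residual Cyp4a31 signal in null liver rests on 1 dim reading.

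Cyp4a12a, the male-predominant Cyp4a enzyme that hydroxylates arachidonic acid, was bright on both arrays. Its signals were 59742 (wild type) and 39416 (null), a 1.52-fold difference (log2 ratio 0.60). That was 1.41 times the pooled SD between probe sets of a gene and under the 2-fold threshold. The null signal was 66.0% of wild type and 146.3 times the floor, whereas that of the brighter Cyp4a31 probe set was 2.3%. Null signals under the floor were at most 0.257% of wild type for Cyp4a14, 3.4% for the second Cyp4a31 probe set and 0.192% for the probe set shared with Cyp4a10. Cyp4a12b is a close copy of Cyp4a12a and may share its probes, which the symbols do not show.

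Cyp4f14 was the only member that was at least 2-fold lower in wild type. This liver-enriched Cyp4f enzyme gave signals of 7073 (wild type) and 16087 (null), 2.27-fold lower in wild type (log2 ratio -1.19). The difference was 2.79 times the pooled SD between probe sets of a gene. It rests on 1 probe set, and it was under 2-fold after scaling to the hybridization controls, at a log2 ratio of -0.81.

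The remaining Cyp4f genes lay on the other side of 0 and within 2-fold. Cyp4f15 gave 9907 (wild type) and 7268 (null), a ratio of 1.36-fold (log2 0.45). Cyp4f13 gave 3681 and 3206, a ratio of 1.15-fold (log2 0.20), which is inside 1 pooled SD. Cyp4f13 lies next to Cyp4f14 on chromosome 17 and shares the marked promoter run with it.

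Cyp4v3 is the mouse counterpart of CYP4V2, the gene mutated in Bietti crystalline corneoretinal dystrophy. Its probe sets gave 13028 and 25917 in wild type against 17843 and 34629 in null. The log2 ratios were -0.45 and -0.42, so the pair differed by 0.036. In null the signals were 1.37-fold and 1.34-fold those of wild type, and neither reached 2-fold.

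**Figure D2:**
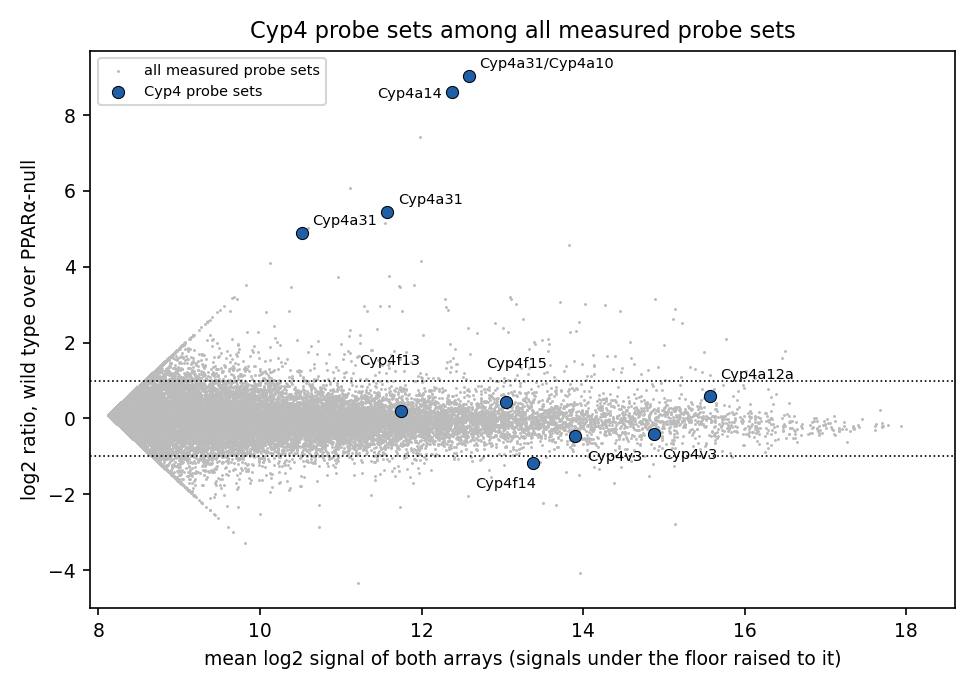
Log2 ratio of wild type over PPARα-null (vertical) against mean log2 signal of both arrays (horizontal) for all 26593 measured probe sets (grey) and the 10 Cyp4 probe sets (blue, labelled), with dotted lines at 2-fold. The shared Cyp4a31 and Cyp4a10 probe set (9.03) and Cyp4a14 (8.60) stand at the top, and Cyp4f14 (-1.19) is the lowest Cyp4 point.

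The Cyp4 ratios can be placed among the 18448 probe sets that reached the floor on each array, of which the middle 90% had log2 ratios between -0.81 and 0.86. In that order the brighter Cyp4a31 probe set ranked 2, after Vnn1, the pantetheinase vanin 1 (52793 in wild type and 307.4 in null). The null signal of Vnn1 lay under the brightest Bacillus control (422.4), so its place in the order is uncertain. The next genes that are no members were the cytochrome c oxidase subunit gene Cox6b2 (35.8-fold higher), the retinol saturase gene Retsat (23.7-fold, 1 probe set) and the fatty acid translocase gene Cd36 (17.8-fold). Counted from the other end, Cyp4f14 ranked 223. Bounds have no place in this order, so Cyp4a14, the second Cyp4a31 probe set and the shared probe set were left out of it.

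Along chromosome 4 the genes named by the strongly different Cyp4a probe sets sat side by side. RefSeq places 15 annotated genes and pseudogenes from Cyp4a29 to Cyp4a32, 8 of them protein-coding. Among the protein-coding genes the order runs Cyp4a12a, Cyp4a12b, Cyp4a30b, Cyp4a14, Cyp4a10, Cyp4a31, Cyp4a32. Cyp4a14, Cyp4a10 and Cyp4a31 thus follow each other and Cyp4a12a lies apart. Cyp4a10 has only the probe set shared with Cyp4a31, so a difference of its own cannot be read from these arrays. Beyond Cyp4a32 comes Cyp4b1, a member of the family that is expressed mainly in lung, which gave 1464 in wild type and 2176 in null (log2 ratio -0.57). Of the 5 nearest genes on each side, 4 were measured, with log2 ratios at their brightest probe sets from -0.57 to 1.02. The highest was Pdzk1ip1, where the other probe set had -0.08. Of Efcab14, the brightest probe set had 0.01 and dimmer ones ran from -1.22 to 1.37.

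The Cyp4f genes on chromosome 17 were a mixture in gene order. Cyp4f39, an omega-hydroxylase of very long chains in skin, gave 618.6 in wild type and 331.6 in null (log2 ratio 0.90), and Cyp4f16 lay at the floor. Cyp4f15 and Cyp4f14 are separated by zinc finger genes, of which Zfp871 had log2 ratios of -0.34, -0.54 and -0.92 at 3 probe sets and Zfp799 had 0.02. The 6 measured flanking genes had log2 ratios between -0.75 for Pglyrp2, a liver-secreted amidase of peptidoglycan, and 1.21 for Zfp763, whose null signal was under the floor. The other Zfp763 probe set, also a bound, had 0.49.

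**Figure D3:**
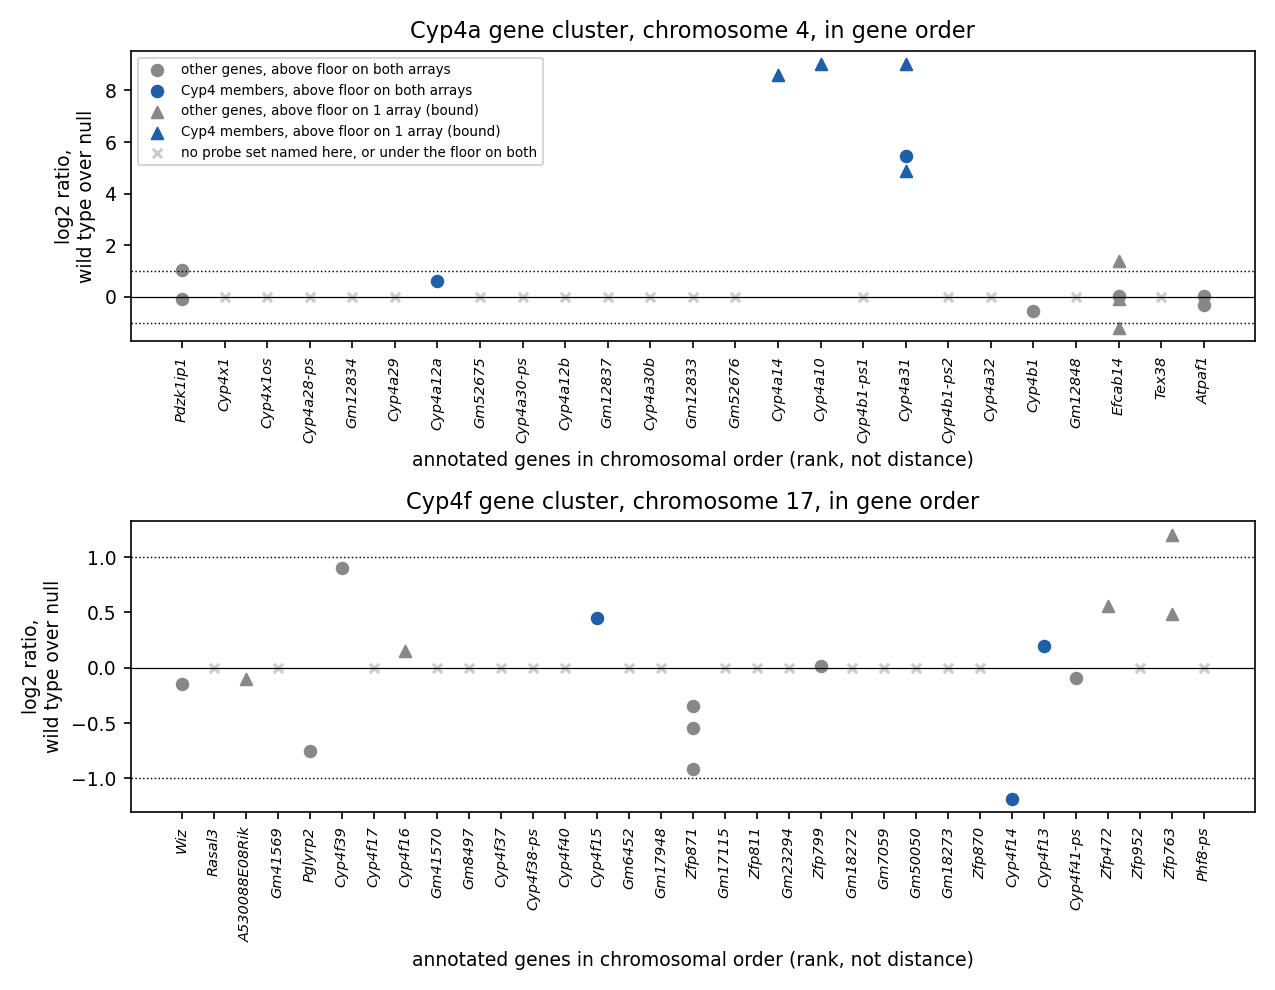
Log2 ratio of wild type over PPARα-null (vertical) for each probe set, with the genes of the Cyp4a cluster (top) and the Cyp4f cluster (bottom) in chromosomal order (horizontal, rank and not distance). Blue marks Cyp4 members, triangles are bounds and crosses are genes without a measured probe set. Cyp4a14, Cyp4a10 and Cyp4a31 (4.88 to 9.03) stand above all other points, while the Cyp4f panel runs from -1.19 to 1.21. The probe set shared by Cyp4a31 and Cyp4a10 is drawn at both genes, and Cyp4a10 has no other point.

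The other Cyp4 genes had no member at 2-fold or more among 3 measured of 10 listed, but 1 under the control scaling and 1 with no floor. Besides Cyp4b1, Cyp4f39 and Cyp4f16, the probe sets of Cyp4f18 and Cyp4x1 lay under the floor on both arrays. Genes listed as electron donors or partners of P450 enzymes were also within 2-fold, in 4 of 4 measured of 5 listed. Cyp4a hydroxylation draws on cytochrome b5, and its gene Cyb5a gave 90281 in wild type and 107606 in null (log2 ratio -0.25). Pgrmc1, a haem-binding partner of P450 enzymes, gave 93789 and 99950. Por, the P450 reductase gene, had no probe set under that symbol.

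Of 8 measured genes in a list of alcohol and aldehyde dehydrogenases, 2 were higher in wild type by 2-fold or more and 0 lower. Of all 13041 measured genes, 4.99% were higher and 2.8% lower. Not every listed enzyme is known here to act on the products of omega-hydroxylation. Aldh3a2, the microsomal fatty aldehyde dehydrogenase, gave 38682 in wild type and 4634 in null, 8.35-fold higher. Aldh9a1, which oxidises aminoaldehydes, was 2.27-fold higher. The alcohol dehydrogenase gene Adh1 had nearly equal signals (118290 and 118220). The brightest probe set of the mitochondrial dehydrogenase gene Aldh2 had a log2 ratio of -0.07, and dimmer ones above the floor on both arrays had 1.28, 0.16 and -0.58.

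Genes that carry and break down dicarboxylic acids in peroxisomes had 9 of 13 measured members higher in wild type by 2-fold or more and 0 lower. Of all 13041 measured genes, 4.99% were higher and 2.8% lower. The median log2 ratio of the 13 was 1.51. Ehhadh, the bifunctional enzyme used for dicarboxylic acids, was 7.46-fold higher, and the thioesterase gene Acot8 7.08-fold. The ABC transporter gene Abcd3, whose product imports dicarboxylic acids into peroxisomes, was 2.57-fold higher and Abcd2 at least 6.95-fold. The thiolase genes Acaa1b (3.43-fold) and Acaa1a (2.86-fold), Acot4 (3.25-fold), Hsd17b4 (3.01-fold) and Crot (2.52-fold) made up the rest. Other probe sets of Acaa1a and Acot4 had log2 ratios of 0.68 and 0.58, under 2-fold. Scp2, Nudt7, Nudt19 and Slc27a2 were within 2-fold.

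**Figure D4:**
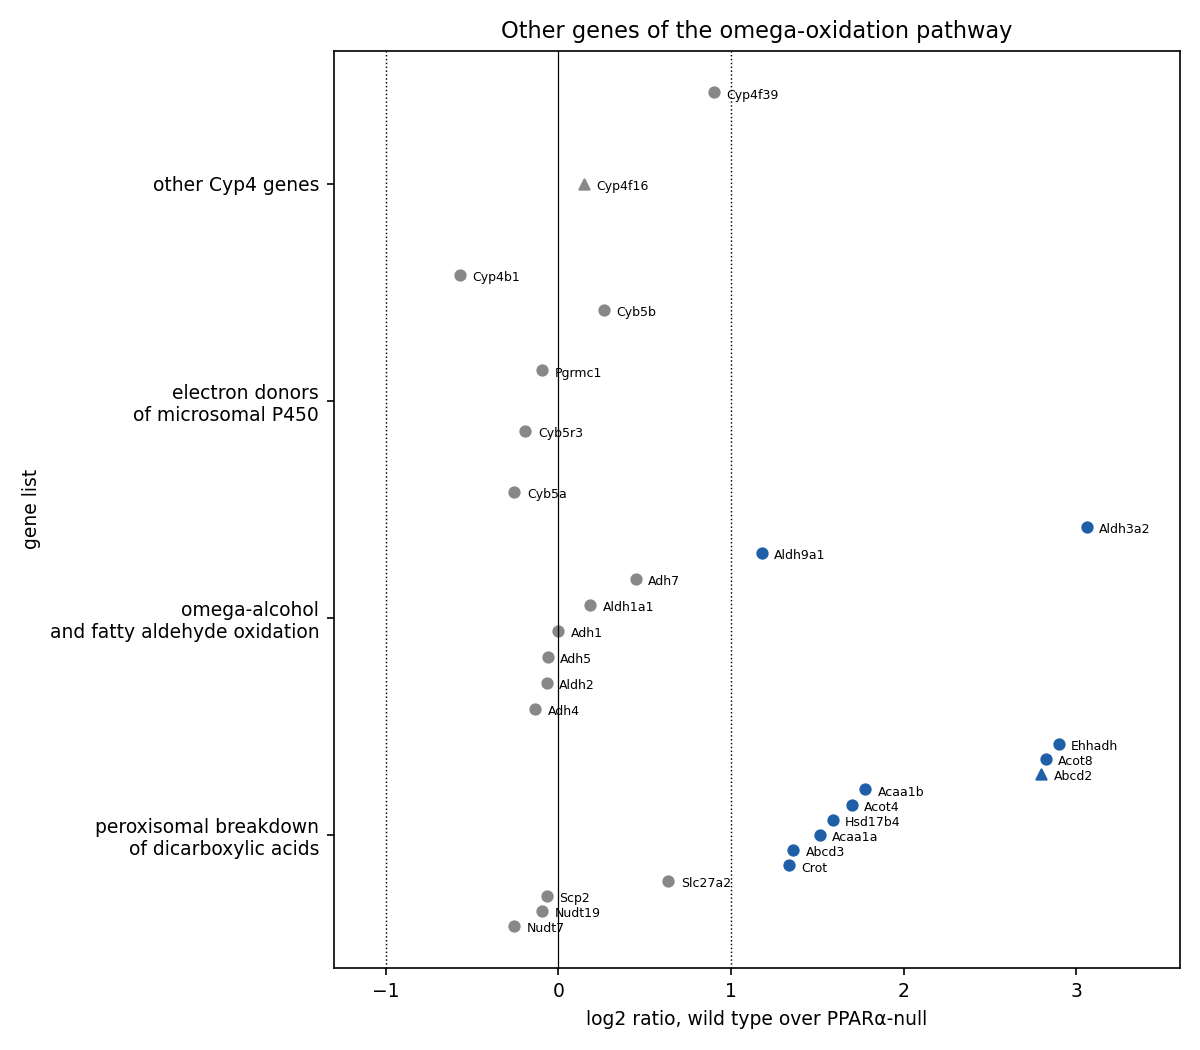
Log2 ratio of wild type over PPARα-null (horizontal) of each measured gene at its brightest probe set, by gene list (vertical), with dotted lines at 2-fold, blue for genes at or past it and a triangle for a bound. Of the peroxisomal genes 9 of 13 lie to the right of the line, against 4.99% of all measured genes. Aldh3a2 (3.06) has the highest ratio among genes above the floor on both arrays, while Abcd2 is a bound at 2.80.

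The Cyp4 values belong to a pair of liver pools, for which the signals of Ppara and of cell markers are given here. With 1 array each, these signals do not establish the genotype labels. Ppara was dimmer in null at its 3 probe sets, at 36.0% to 50.6% of wild type, and the disrupted part of the gene is not named in the labels. Of 8 hepatocyte markers 7 were measured, 0 of them 2-fold apart, with summed signals of 778858 in wild type and 914077 in null. Kupffer cell markers summed to 14856 and 21593, with 1 of 6 measured markers at least 2-fold lower in wild type and 0 higher. Their median log2 ratio was -0.63, the lowest of these marker lists. Endothelial markers summed to 10949 and 12081, with 1 of 6 measured at least 2-fold higher in wild type. Of all 13041 measured genes, 4.99% were at least 2-fold higher and 2.8% at least 2-fold lower. Sums were 7561 and 8418 for stellate, 903.2 and 1093 for cholangiocyte, 1494 and 1027 for kidney proximal tubule and 4523 and 7284 for erythroid markers. Marco, Col1a1, Krt7 and Umod were under the floor on both arrays. The part of these cells in the Cyp4 results was not tested. In pooled tissue RNA, fewer cells that express a gene and less RNA per cell cannot be told apart.

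The direction of every member was the same under the 8 other scalings and floors tried, although the size of the Cyp4a bounds was set by the floor. A change of floor cannot alter a member that stays above it on both arrays, so part of this sameness was fixed beforehand. With no floor the ratios were 2379-fold for Cyp4a14, 903.5-fold for the shared probe set and 333.2-fold for the second Cyp4a31 probe set, and signals this dim carry little information on the true ratio. With the floor at the 75th percentile of each array the log2 bounds were 7.00, 7.42 and 3.28. Scaling to the 18 hybridization control probe sets, which read bacterial and phage transcripts added to the sample, moved the median log2 ratio of all measured probe sets from 0.006 to 0.39. Under that scaling 13.5% of all measured probe sets were higher in wild type by 2-fold or more and 0.876% lower, and the members counted 4 higher and 0 lower. Cyp4a12a then had a log2 ratio of 0.98, just under 2-fold, and Cyp4v3 had -0.07 and -0.04.

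**Figure D5:**
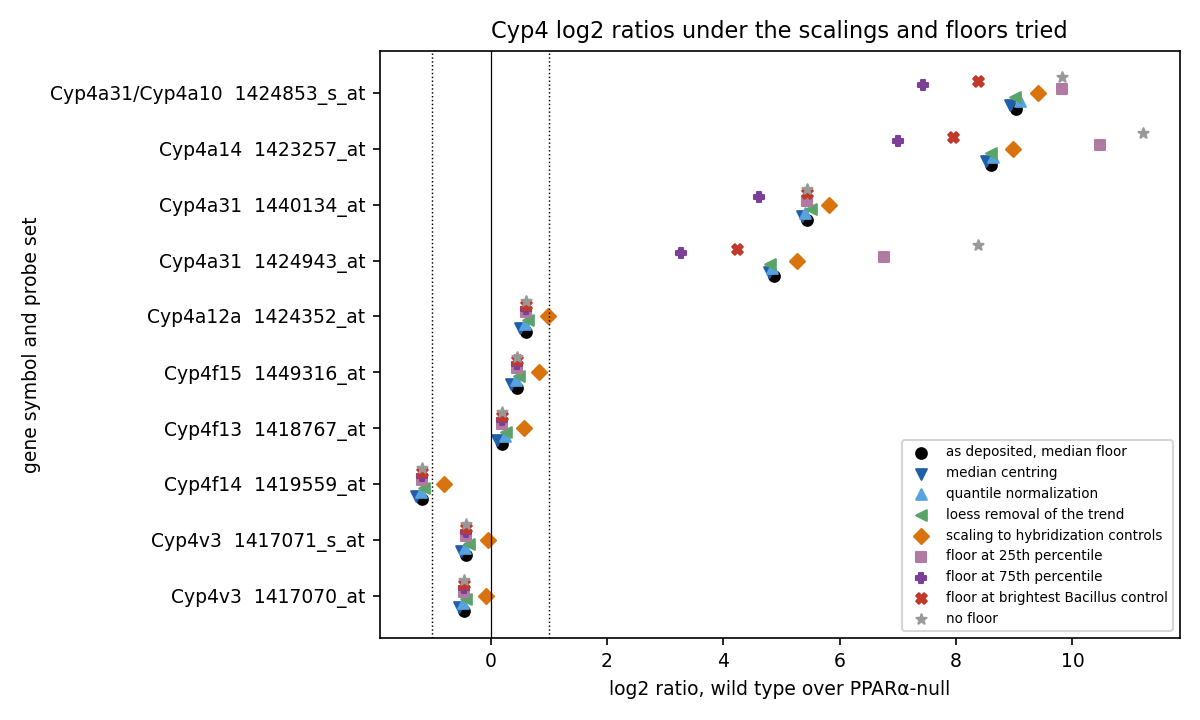
Log2 ratio of wild type over PPARα-null (horizontal) of each Cyp4 probe set (vertical) under the deposited scaling with the median floor and 8 alternatives (symbols), with dotted lines at 2-fold. The 3 bounds spread most, Cyp4a14 from 7.00 to 11.22, and Cyp4f14 crosses the 2-fold line (-0.81) only under the control scaling.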

How the data were processed

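Liver RNA pools of 3 wild-type and 3 PPARα-null mice were hybridised to 1 array each. The deposited values are signal intensities, 1 for each probe set and array. They were made by the authors with Affymetrix's statistical algorithm, scaled over all probe sets to a target of 1000, per the labels. Its software version is not given in the sources used here. Symbols came from the platform annotation of 2016: of 45037 probe sets that are not controls, 34945 had 1 symbol, 932 several and 9160 none here.

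Signals were used as deposited and the calculations ran in Python 3.11.15 with pandas 2.3.3. A gene of a list was represented by its brightest probe set with 1 symbol. Protein sequences were not used here. The calling step was tested on simulated data. All listed Cyp4 genes were named, with Ppara, list members at least 2-fold apart, the 2 brightest of other lists and the 3 genes next in order. Of the 5 nearest genes on either side of each cluster only some were named. Those and other names were chosen after their values were seen. The members and lists were chosen with earlier results of these data known. The number of arrays limits the precision. Alternatives were median centring, quantile normalization, loess, control scaling, other floors and thresholds, and leaving out probe sets that may match several genes.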

Additional observations from a re-analysis of the deposited data

How the results depend on the processing

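No paired analysis was possible because each genotype has 1 array. The 4 member probe sets at least 2-fold higher in wild type numbered 4 under each scaling and floor and at 3-fold, 5 at 1.5-fold, and 3 without probe sets of several symbols and 3 without those ending in _x_at, _s_at or _a_at. Over all measured probe sets the share at least 2-fold higher was 4.67%, and it ran from 1.99% (75th percentile floor) to 16.4% (25th percentile floor) and 20.9% (no floor), with 0.895% at 3-fold and 14.8% at 1.5-fold. The count of 1 lower (Cyp4f14) was 0 with the hybridization controls as the scale, which shifts all ratios upward, and 0 at a threshold of 3-fold. Over the 4 pathway lists, with 3, 4, 8 and 13 measured genes, 11 genes were at least 2-fold apart. Of all measured genes, 4.99% were at least 2-fold higher and 2.8% at least 2-fold lower. The pathway count was 7 at 3-fold, and between 10 (median over probe sets) and 13 (control scaling, no floor or 1.5-fold) otherwise. The settings that gave 13 also called more of all measured probe sets higher than the 4.67% of the main setting. Those shares were 13.5% under control scaling, 20.9% with no floor and 14.8% at 1.5-fold, so these counts are not directly comparable with the 11. Of 80 member log2 ratios under 8 alternatives, 0 changed sign and 67 moved by less than the pooled SD. The other 13 belong to the Cyp4a14, Cyp4a31 and shared Cyp4a31 and Cyp4a10 probe sets under other floors. Much of the count of 67 was fixed by the settings themselves. Median centring and control scaling shift every ratio by the same amount, which was under the pooled SD. Other floors leave a member that stays above them on both arrays unchanged. Dim null signals limit these ratios to bounds, and 1 array per genotype leaves the error of every value unknown.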
